A study of Oryza sativa with 12 samples.

Results

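OsSPL14, SPL16 and OsLG1 are rice genes of the SQUAMOSA promoter-binding-like (SPL) family, and their transcripts were followed in young panicles of the osmads1 mutant and of wild type. They were chosen by gene symbol or synonym in the array's annotation, and each is read by 1 probe set. They make up 3 of the 17905 genes that the annotation ties to a probe set, and 8 further SPL genes are among the rest. These 8 are not the whole remaining SPL family. OsSPL14 (LOC4345998, also IPA1 and WFP) and SPL16 (LOC4346133) lie on chromosome 8 and OsLG1 (LOC4337258, also SPL8) on chromosome 4 of the rice assembly ASM3414082v1.

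The groups were osmads1 panicles of 2 mm, wild-type panicles of 2 mm, osmads1 panicles of 5-7 mm and wild-type panicles of 5-7 mm, with 3 arrays of biological replicates in each. All plants stood in a paddy field without special treatment, and the labels call the shorter length an early and the longer a late stage of flower development. The study asked what the MADS-box gene OsMADS1 does at each stage. The labels do not give the osmads1 allele, the genetic background or how many panicles went into a sample.

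SPL proteins are plant transcription factors that bind DNA through a zinc-binding SBP domain. The transcripts of many of them, OsSPL14 and SPL16 included, are targets of the microRNA miR156, whereas OsLG1 belongs to a subgroup without a miR156 site. In rice, OsSPL14 limits tillering and promotes panicle branching, SPL16 raises cell proliferation in the spikelet hull and with it grain width, and OsLG1 is required for the ligule and auricle of the leaf and sets how far panicle branches spread.

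Each value below is a deposited log2 level, with group means ± SD over 3 arrays (n = 3). A difference is the osmads1 mean less the wild-type mean on the log2 scale, with its SE from a limma fit of all 57194 non-control probe sets. The 3 genes were picked with their genotype differences at both lengths already known. Their differences are therefore a description, and no p-value is given for them. The medians of the 2 mm arrays were 4.10 to 4.13 and those of the 5-7 mm arrays 4.93 to 5.004, and levels of the 2 lengths thus do not share one scale. OsMADS1 itself was low in all mutant arrays, with 4.86 ± 0.52 in osmads1 against 10.80 ± 0.20 in wild type in the shorter panicles, and with 4.10 ± 0.76 in osmads1 against 11.53 ± 0.069 in wild type in the longer ones.

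OsSPL14 was higher in osmads1 at 2 mm and lower in osmads1 at 5-7 mm. At 2 mm it read 11.33, 11.30 and 11.26 in the osmads1 arrays, against 10.75, 10.66 and 10.64 in the wild-type arrays. The genotypes did not overlap, and the gap between them was far wider than the spread inside either one. The difference was 0.61 ± 0.091, or 1.53-fold, with means of 11.30 ± 0.035 in osmads1 against 10.68 ± 0.057 in wild type.

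At 5-7 mm the order of the genotypes was turned round. OsSPL14 read 9.32, 9.42 and 9.24 in osmads1, against 9.90, 9.56 and 9.60 in wild type. The arrays again did not overlap, but the lowest wild-type array lay close above the highest osmads1 array. The difference was -0.36 ± 0.091 (means of 9.33 ± 0.091 in osmads1 and 9.69 ± 0.18 in wild type, 1.28-fold lower in osmads1). Wild-type replicate 1 stood above the other wild-type arrays, and without it the difference was -0.25. The change of the OsSPL14 difference between the lengths, 5-7 mm minus 2 mm, was -0.97 ± 0.13.

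SPL16 did not separate the genotypes at 2 mm and was lower in osmads1 at 5-7 mm. At 2 mm it read 5.18, 4.44 and 4.91 in osmads1, against 5.01, 4.91 and 4.85 in wild type. The osmads1 arrays lay on both sides of the wild-type arrays. The difference of -0.083 ± 0.16 was smaller than its error, and it was 0.12 without osmads1 replicate 2 and -0.25 without osmads1 replicate 1, so that its sign rests on single arrays.

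At 5-7 mm SPL16 read 7.81, 7.41 and 7.85 in osmads1, against 8.44, 8.38 and 8.39 in wild type. All 3 osmads1 arrays were below all 3 wild-type arrays, with osmads1 replicate 2 the lowest, as it was at 2 mm. The arrays of this number were also the lowest osmads1 arrays for other genes, such as the chlorophyll-binding protein gene CAB2R (8.19, 6.34 and 7.60 at 2 mm, 9.61, 8.40 and 9.36 at 5-7 mm), although over all probe sets their distance from the mean of the other 2 arrays (root mean square of 0.183 and 0.201) lay within the 0.144 to 0.211 of all 12 arrays. The difference was -0.72 ± 0.16, or 1.64-fold lower in osmads1, and it was -0.57 without osmads1 replicate 2. The wild-type arrays varied little (8.40 ± 0.029) beside those of osmads1 (7.69 ± 0.25). The difference at 5-7 mm minus that at 2 mm was -0.63 ± 0.22.

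OsLG1 was higher in osmads1 at both lengths, slightly at 2 mm and clearly at 5-7 mm. At 2 mm it read 6.98, 6.98 and 7.25 in osmads1, against 6.69, 6.87 and 6.88 in wild type. The genotypes did not overlap, yet the lowest osmads1 arrays were close to the highest wild-type array. The difference was 0.26 ± 0.10 (means of 7.07 ± 0.15 in osmads1 and 6.81 ± 0.10 in wild type), and it was 0.17 without osmads1 replicate 3.

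At 5-7 mm OsLG1 read 7.34, 7.72 and 7.52 in osmads1, against 6.23, 6.17 and 6.16 in wild type. The lowest osmads1 array stood more than a full log2 unit above the highest wild-type array. The difference was 1.34 ± 0.10, or 2.53-fold, with means of 7.53 ± 0.19 in osmads1 and 6.18 ± 0.039 in wild type, and it kept between 1.25 and 1.43 whichever array was left out. The difference at 5-7 mm minus that at 2 mm was 1.08 ± 0.15.

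Of the 3 genes, 2 had higher osmads1 arrays without overlap at 2 mm, where 20.5% of all genes did and 25.5% were lower in the same way. At 5-7 mm 1 was higher and 2 were lower without overlap, where 22.4% and 29% of all genes were higher and lower. The genes were picked on these comparisons, so nothing is read from these counts. In whole panicles, fewer cells of a type and less RNA in each cell cannot be told apart.

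**Figure D1:**
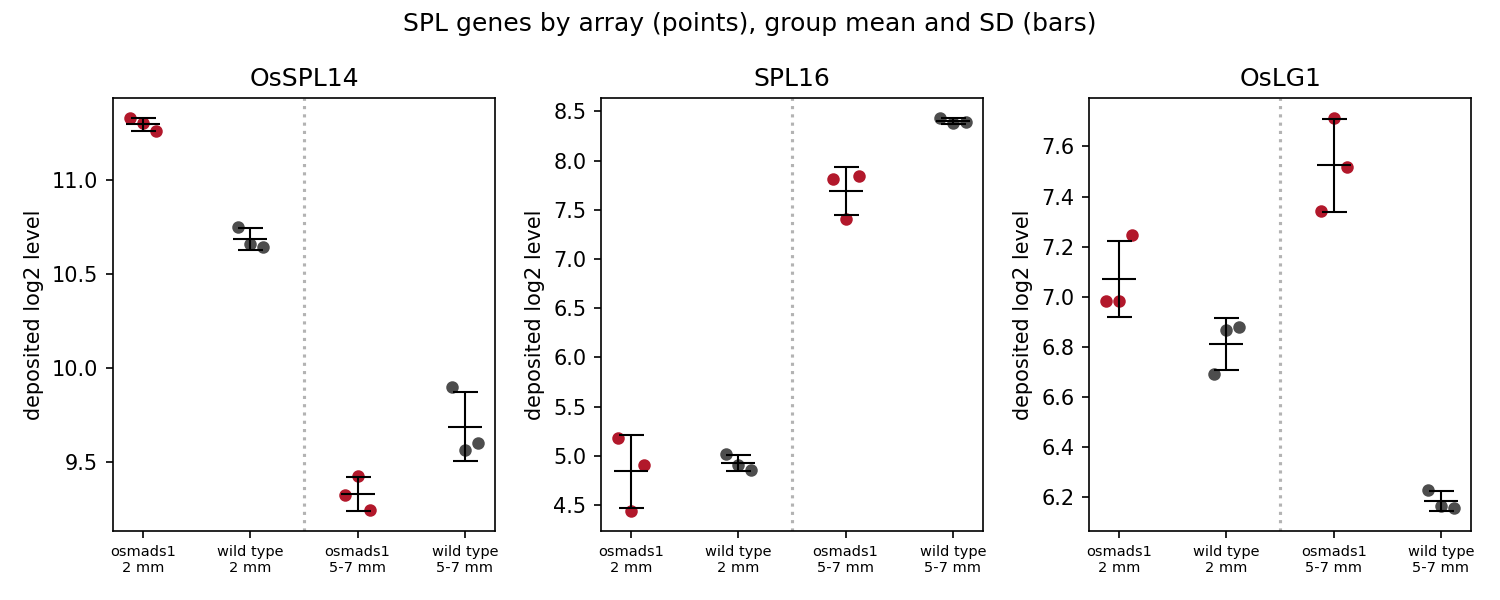
Deposited log2 level of OsSPL14, SPL16 and OsLG1 in each array (points, osmads1 in red and wild type in grey), with group mean and SD (bars, n = 3), and a dotted line between the lengths, which do not share one scale. OsSPL14 in osmads1 lies above wild type at 2 mm (0.61) and below it at 5-7 mm (-0.36), SPL16 separates the genotypes at 5-7 mm (-0.72), and OsLG1 shows its wide gap at 5-7 mm (1.34).

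Between the lengths, OsSPL14 stood lower and SPL16 higher in the longer panicles of both genotypes. The position of a probe set among all tested probe sets of its array was used for this, since it does not depend on the scale of the array. OsSPL14 lay at percentile 99.1 to 99.2 in osmads1 against 98.3 to 98.4 in wild type at 2 mm, and at 89.4 to 91.03 in osmads1 against 91.7 to 93.5 in wild type at 5-7 mm. SPL16 lay at percentile 54.4 to 62.7 in osmads1 against 59.4 to 60.99 in wild type at 2 mm. At 5-7 mm SPL16 had moved up to 75.6 to 78.6 in osmads1 and 82.8 to 83.02 in wild type.

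OsLG1 parted the genotypes in this respect. It lay at percentile 77.003 to 79.001 in osmads1 against 74.9 to 76.4 in wild type at 2 mm, and at 74.98 to 78.02 in osmads1 against 64.7 to 65.2 in wild type at 5-7 mm. Its rank was thus lower in the longer wild-type panicles, while the ranges of the osmads1 arrays of both lengths overlapped.

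In deposited log2 levels, 5-7 mm minus 2 mm, OsSPL14 shifted by -1.97 in osmads1 and -0.997 in wild type, and by -2.55 in osmads1 and -1.60 in wild type after quantile normalization of all 12 arrays together. SPL16 shifted by 2.85 in osmads1 and 3.48 in wild type as deposited, and by 2.13 in osmads1 and 2.73 in wild type after that normalization. For OsLG1 the wild-type shift was -0.63 as deposited and -1.36 after quantile normalization. The osmads1 shift of OsLG1 was 0.45 as deposited, -0.20 after quantile normalization and -0.40 after median centring, so that its sign depends on the scale.

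Along the deposited scale the groups of OsSPL14, from the lowest, were osmads1 and wild type at 5-7 mm, then wild type and osmads1 at 2 mm, with no overlap between neighbours. The SPL16 order began with the osmads1 and wild-type groups of 2 mm, which overlapped, and went on with osmads1 and then wild type at 5-7 mm. The OsLG1 order was wild type at 5-7 mm, wild type at 2 mm, osmads1 at 2 mm and osmads1 at 5-7 mm, with no overlap between neighbours. On other scales the osmads1 group of 5-7 mm moved down in this order: after quantile normalization it (7.21) lay below osmads1 at 2 mm (7.41) and above wild type at 2 mm (7.16), and after median centring (7.14) it lay below both 2 mm groups (7.55 in osmads1, 7.28 in wild type).

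**Figure D2:**
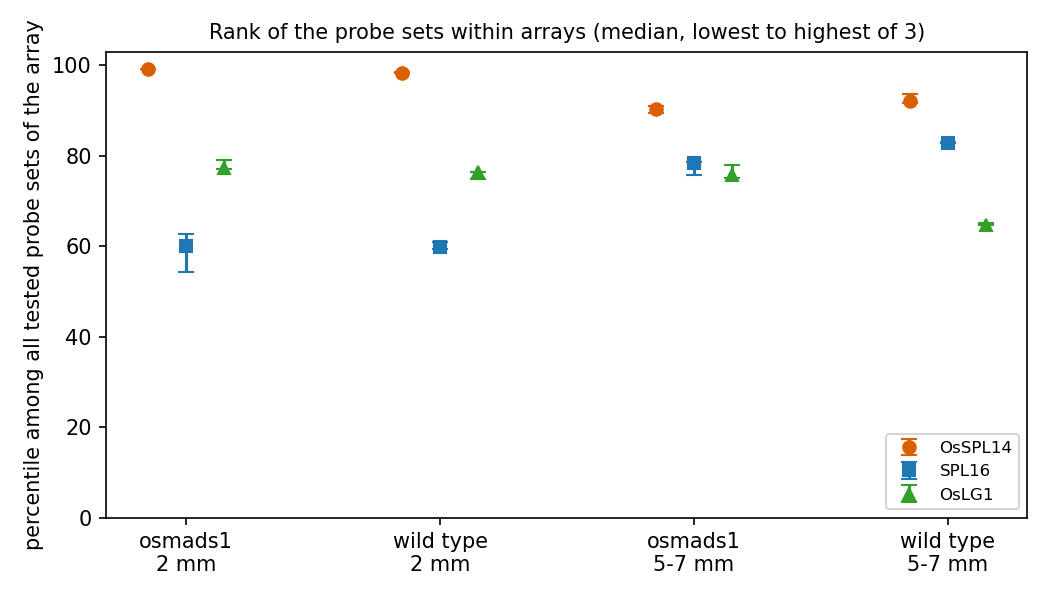
Percentile of each SPL probe set among all 57194 tested probe sets of its array, by group, as the median of 3 arrays with bars to the lowest and highest. The comparison is of one probe set across groups, and ranks of different probe sets do not compare transcript amounts. OsSPL14 is lower and SPL16 higher at 5-7 mm, and OsLG1 is lower in wild type at 5-7 mm (64.7 to 65.2) than in the other groups.

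SPL1, SPL2 and SPL15 rose in osmads1 at 2 mm, as OsSPL14 was higher there. Of the 8 other SPL genes with a probe set, 3 thus rose at 2 mm and 0 fell, where 10.2% of all genes rose and 12.1% fell (limma, Benjamini-Hochberg adjusted p under 0.05). The median difference of the 8 genes was 0.0058, beside -0.017 over all genes.

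SPL1 rose most, to 8.58, 8.57 and 8.59 in osmads1, against 7.996, 8.02 and 8.25 in wild type at 2 mm (0.49 ± 0.076, limma adjusted p = 0.000831). SPL2 read 8.47, 8.42 and 8.51 in osmads1, against 8.07, 8.12 and 8.09 in wild type (0.37 ± 0.077, limma adjusted p = 0.00564). SPL15 read 11.54, 11.38 and 11.49 in osmads1, against 11.18, 11.15 and 11.11 in wild type (0.32 ± 0.074, limma adjusted p = 0.0113). In each of the 3 genes the osmads1 arrays were above the wild-type arrays, by less than in OsSPL14. SPL4, SPL6, SPL7, SPL9 and SPL12 did not pass, with differences from -0.26 (SPL12) to 0.04 (SPL9).

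At 5-7 mm, 1 of the 8 other SPL genes rose in osmads1 and 2 fell, where 13.3% of all genes rose and 19.4% fell. The median difference was -0.22, beside -0.017 over all genes. SPL2 fell, with 9.27, 9.07 and 9.33 in osmads1, against 9.77, 9.68 and 9.71 in wild type (-0.49 ± 0.077, limma adjusted p = 0.000404). SPL9 fell as well, with 9.60, 9.66 and 9.72 in osmads1, against 9.99, 9.95 and 10.07 in wild type (-0.34 ± 0.067, limma adjusted p = 0.00249). In both genes the genotypes did not overlap.

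SPL6 was the one that rose at 5-7 mm, with 8.79, 8.83 and 8.84 in osmads1, against 8.61, 8.48 and 8.497 in wild type (0.29 ± 0.074, limma adjusted p = 0.013, and 0.054 without wild-type replicate 2). Its dimmer probe set had a difference of 0.17 and overlapping arrays. SPL7 (-0.44 ± 0.16, limma adjusted p = 0.0605) did not pass, and passed without osmads1 replicate 2 (adjusted p = 0.00282) or wild-type replicate 1 (adjusted p = 0.0409). SPL1, SPL4, SPL12 and SPL15 did not pass. SPL4 has 4 probe sets that disagree in sign at this length, from -0.28 to 0.39, and 1 of them lay below the upper quartile of reporter controls in every group.

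The genotype difference itself changed between the lengths in 5 of the 8 other SPL genes, 4 of them downward and 1 upward, where 19.2% of all genes changed downward and 17.2% upward. SPL2 changed from higher to lower in osmads1, a change of -0.87 ± 0.11 (limma adjusted p = 6.45e-05), and it is the other SPL gene that passed at both lengths in opposite directions. SPL1 (-0.60 ± 0.11), SPL15 (-0.47 ± 0.10) and SPL9 (-0.38 ± 0.095) also changed downward, but none of them passed at both lengths. SPL9 did not pass at 2 mm, and SPL1 and SPL15 did not pass at 5-7 mm. SPL6 changed upward (0.36 ± 0.10, limma adjusted p = 0.0256, but 0.0552 to 0.0671 when the array left out was replicate 2 or 3 of osmads1 at 2 mm, replicate 1 or 2 of wild type at 2 mm, or replicate 2 or 3 of wild type at 5-7 mm). OsSPL14 had -0.97 and OsLG1 1.08 on this scale.

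**Figure D3:**
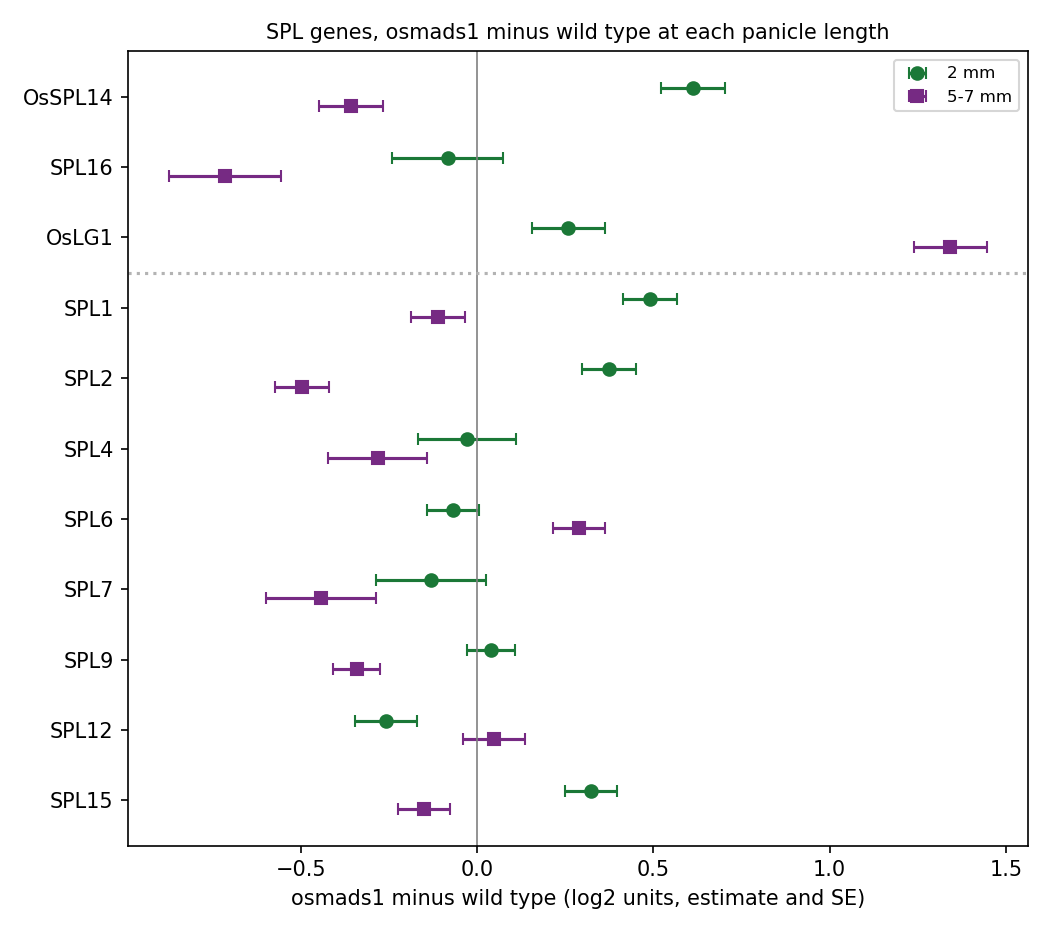
Difference between osmads1 and wild type (log2 units, estimate and SE from the limma fit) at 2 mm (green circles) and 5-7 mm (purple squares) for OsSPL14, SPL16 and OsLG1 (above the dotted line) and the 8 other SPL genes (below it), each by its brightest probe set. Of the 8 other SPL genes, SPL1, SPL2 and SPL15 pass right of 0 at 2 mm (limma adjusted p under 0.05). At 5-7 mm SPL2 and SPL9 pass left of 0 and SPL6 passes right of 0. The other points of the 8 genes did not pass, SPL7 at 5-7 mm (-0.44) included. OsLG1, not tested, reaches 1.34 at 5-7 mm.

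A mixed list of 9 measured genes, called the SPL pathway list, was read in the same fit. It holds genes of strigolactone and gibberellin signalling (D14, D3, SLR1) and of panicle branching or meristem identity (LAX1, OsMADS34). The rest are the AP2-type gene TOE1 and the ligule and lamina joint genes OsLG2, BU1 and OsBC1. At 2 mm 3 of the 9 rose in osmads1 and 0 fell, beside the 10.2% and 12.1% of all genes, with a median of 0.22. At 5-7 mm 2 rose and 4 fell, beside 13.3% and 19.4%, with a median of -0.32.

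Both genes of strigolactone signalling on the list rose in osmads1 at 2 mm. D14, the receptor of this branching hormone, rose at 2 mm, with 9.78, 10.21 and 10.03 in osmads1, against 9.18, 9.14 and 9.15 in wild type (0.85 ± 0.12, limma adjusted p = 0.000476). At 5-7 mm D14 did not pass (-0.32 ± 0.12, adjusted p = 0.087, but 0.0346 without osmads1 replicate 2 and 0.0412 without wild-type replicate 2). D3, the F-box protein that acts with D14, rose at 2 mm (0.41 ± 0.095, limma adjusted p = 0.0118, but 0.0628 without osmads1 replicate 3 and 0.0621 without wild-type replicate 2) and fell at 5-7 mm (-0.76 ± 0.095, limma adjusted p = 6.76e-05). SLR1, the DELLA repressor of gibberellin responses, did not pass at either length (0.20 and -0.25).

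TOE1, an AP2-type gene of the class targeted by miR172, rose at 2 mm (0.46 ± 0.12, limma adjusted p = 0.025). It fell at 5-7 mm (-0.58 ± 0.12, limma adjusted p = 0.00345). The 2 mm call needed all of osmads1 replicates 2 and 3 and of wild-type replicates 1 and 2, since leaving out any one of these raised the limma adjusted p to between 0.0725 and 0.114. The branching gene LAX1, a bHLH regulator of axillary meristems, did not pass at 2 mm (-0.46, adjusted p = 0.0546, but 0.0205 to 0.0464 when the array left out was a 5-7 mm one, namely replicate 1 or 2 of osmads1 or replicate 3 of wild type) and rose at 5-7 mm (2.39), and OsMADS34, a regulator of panicle meristem identity, rose at 5-7 mm (0.62).

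OsLG2 and OsBC1 are among the 4 pathway genes that fell in osmads1 at 5-7 mm, where 19.4% of all genes fell. OsLG2, the rice relative of the maize ligule gene liguleless2, fell at 5-7 mm, with 6.15, 5.18 and 5.87 in osmads1, against 6.60, 6.70 and 6.74 in wild type (-0.94 ± 0.20, limma adjusted p = 0.00489). At 2 mm OsLG2 did not pass (0.54 ± 0.20, adjusted p = 0.124). OsBC1, a bHLH gene, fell at 5-7 mm (-0.76 ± 0.086, limma adjusted p = 3.04e-05), and the lamina joint gene BU1 passed at neither length (0.15 and 0.24).

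**Figure D4:**
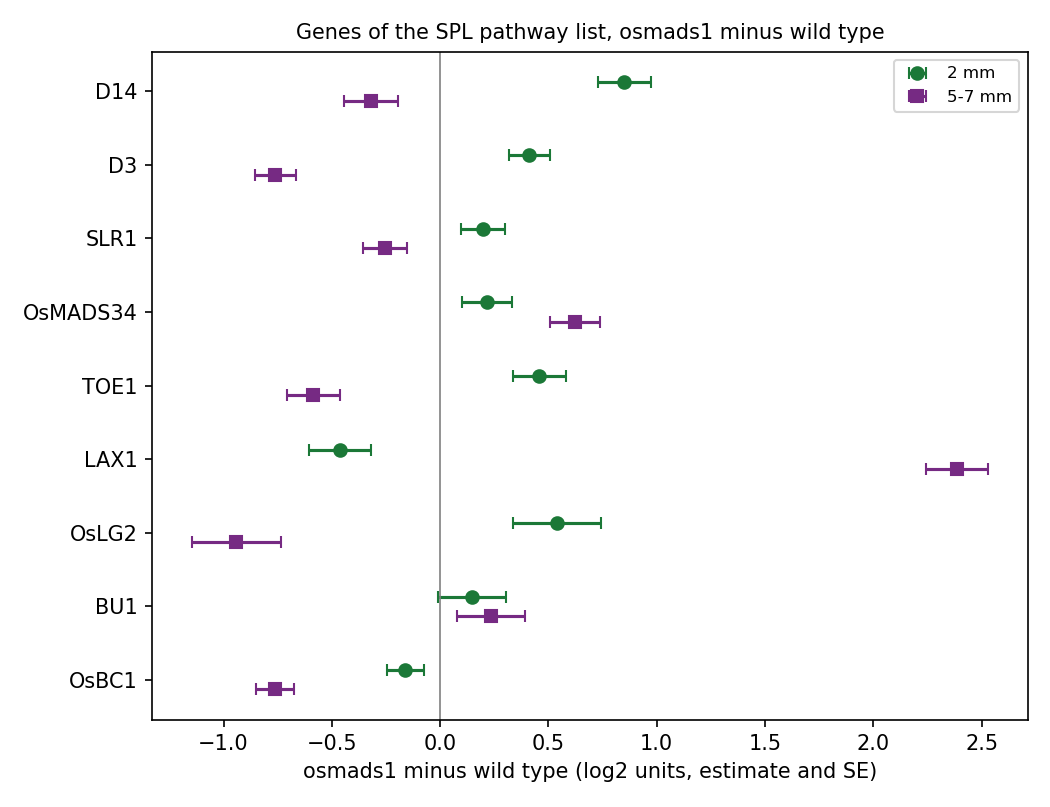
Difference between osmads1 and wild type (log2 units, estimate and SE) at 2 mm (green circles) and 5-7 mm (purple squares) for the 9 measured genes of the SPL pathway list. At 2 mm the genes passing (limma adjusted p under 0.05) are D14, D3 and TOE1, all right of 0. At 5-7 mm D3, TOE1, OsLG2 and OsBC1 pass left of 0, and OsMADS34 and LAX1 (2.39) pass right of 0. The other points did not pass, OsLG2 at 2 mm (0.54) and D14 at 5-7 mm (-0.32) included.

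The named genes whose profiles lay nearest to each of the 3 were found by the root mean square distance over the 12 arrays, after the mean of each length was subtracted, among 2457 genes with informative names. The arrays, their normalization and the groups are shared by all genes, and the distance carries no test. Genes chosen by this distance have similar genotype differences, and similar readings in single arrays, through the choice itself. Nearest to OsSPL14 were the sugar transporter gene OsSWEET4 (0.0826), the starch synthase gene SSII-1 (0.10) and the kinase gene CIPK32 (0.105), where OsSPL14 itself varied by 0.265 around the means of its lengths. OsSWEET4 differed by 0.57 at 2 mm and -0.46 at 5-7 mm, like OsSPL14 with its 0.61 and -0.36.

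Nearest to SPL16 were AS2 (0.0712), a LOB-domain gene, and then MHZ4 (0.124) and the glucosidase gene BGLU8 (0.136), beside a variation of 0.315 in SPL16. AS2 differed by -0.17 at 2 mm and -0.83 at 5-7 mm. In AS2, MHZ4 and BGLU8 alike, replicate 2 was the lowest osmads1 array at both lengths, as in SPL16. The distance was taken over single arrays, so such a match follows from the choice and is not a separate result.

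Nearest to OsLG1 were the bHLH gene BCL1 (0.0921), the jasmonate repressor gene JAZ8 (0.12) and ACLA-2 (0.134), beside a variation of 0.495 in OsLG1. BCL1 differed by 0.23 at 2 mm and 1.40 at 5-7 mm, close to the 0.26 and 1.34 of OsLG1.

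**Figure D5:**
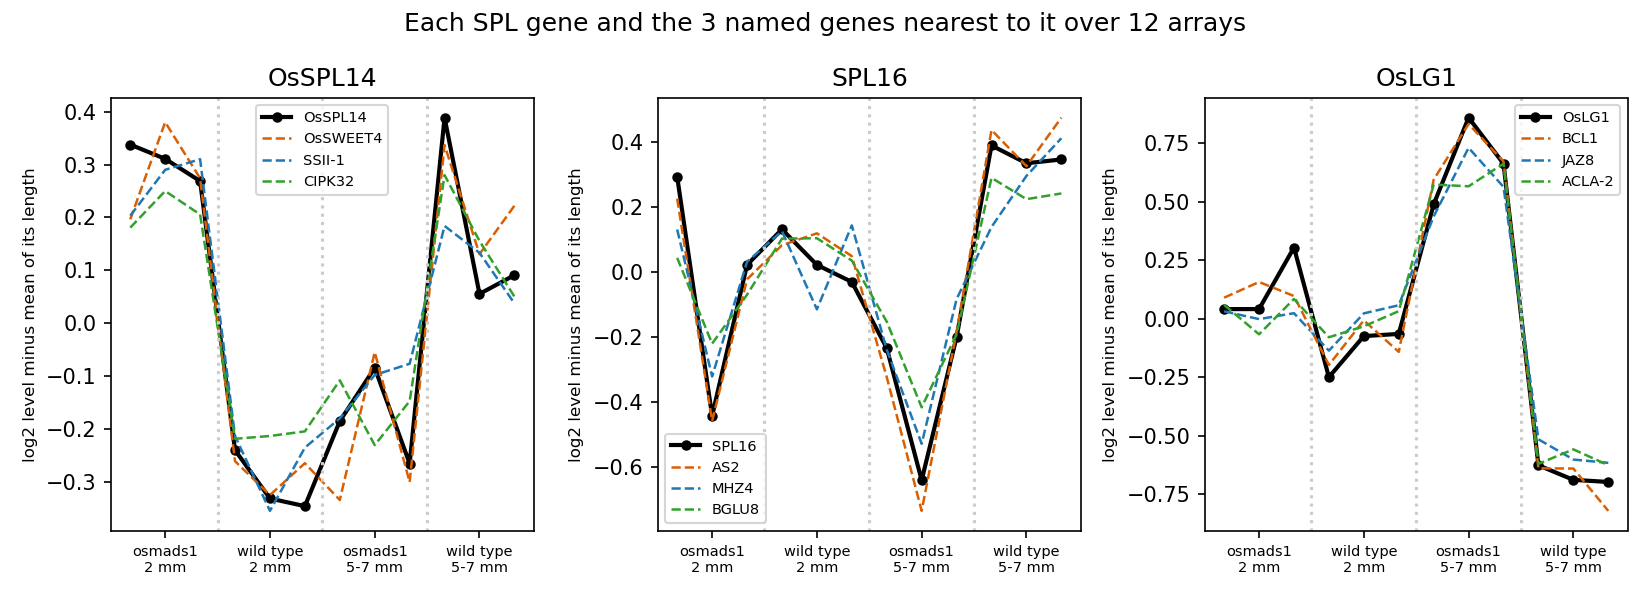
Log2 level minus the mean of its panicle length in each of the 12 arrays, grouped as labelled, for OsSPL14, SPL16 and OsLG1 (black) and the 3 named genes at the smallest root mean square distance (dashed). AS2, MHZ4 and BGLU8 run with SPL16 through the low osmads1 replicate 2 of both lengths, and BCL1 runs with OsLG1 through its step at 5-7 mm. Such matches follow from the choice by distance.

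Other readings moved with genotype beside these genes, where 10.2% of all genes rose and 12.1% fell at 2 mm and 13.3% rose and 19.4% fell at 5-7 mm. In the 9 floral organ MADS-box genes, 8 fell in osmads1 at 2 mm and 9 at 5-7 mm, and their summed level (log2 of the sum of linear levels) was 10.4 to 10.5 in osmads1 against 11.5 to 11.8 in wild type at 2 mm, and 12.2 to 12.5 in osmads1 against 13.5 to 13.7 in wild type at 5-7 mm. Of the floral genes OsMADS3 lay under the upper quartile of reporter controls in osmads1 at 2 mm. Of 9 green tissue genes 4 rose (PORA, PSAG, petC and RCABP89) and 0 fell at 2 mm. At 5-7 mm 4 rose (LFNR1, RCABP69, RCABP89 and CAB2R) and 1 fell (petC, with 1.03 at 2 mm and -0.71 at 5-7 mm). Only RCABP89 rose at both lengths. The sum of the 9 genes was 10.3 to 10.6 in osmads1 against 9.56 to 9.89 in wild type at 2 mm. At 5-7 mm this sum was 10.4 to 11.1 in osmads1 against 9.98 to 10.2 in wild type. None of the 9 genes was near the reporter controls. Of these, PSAG rose at 2 mm by its brighter probe set (1.35), while its dimmer probe set differed by 0.12 with overlapping arrays.

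Of 4 inflorescence genes (RFL, LAX1, OsMADS34 and OSH1) 0 rose and 1 fell at 2 mm, and 4 rose at 5-7 mm, where their sum was 12.9 to 13.1 in osmads1 against 12.0 to 12.3 in wild type. At 2 mm it was 11.9 to 12.2 in osmads1 and 12.2 to 12.3 in wild type. The 2 mm fall was that of OSH1. Its dimmer probe set passed at neither length (-0.34 and 0.31, limma adjusted p = 0.231 and 0.206). LAX1 and OsMADS34 are also counted in the SPL pathway list. Of 5 tapetum genes 3 rose and 1 fell at 2 mm, with a sum of 10.1 to 10.2 in osmads1 and 10.5 to 10.6 in wild type, and 1 rose and 1 fell at 5-7 mm, with 11.40 to 11.42 in osmads1 and 11.1 to 11.3 in wild type. The sum follows MSP1, a receptor kinase gene of early anther development, which fell at 2 mm (9.93 in osmads1, 10.53 in wild type), while OsC6 (by 2.73), RAFTIN1 (by 1.67) and CYP703A3 (by 1.66) rose at far lower levels. At 5-7 mm MSP1 was the gene that rose (0.25) and TIP2 the one that fell (-1.94, with 4.92 in osmads1 and 6.85 in wild type). CYP703A3 was near the reporter controls in every group but osmads1 at 2 mm.

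The GAPDH control reading at the 3' end less that at the 5' end, which depends on RNA quality and labelling, was 2.53 to 2.64 in osmads1 against 3.55 to 3.63 in wild type at 2 mm, and 1.97 to 2.74 in osmads1 against 1.95 to 2.27 in wild type at 5-7 mm. Of 6 such control pairs, 4 were lower in osmads1 without overlap at 2 mm, namely this one, an actin pair (4.52 to 4.69 in osmads1, 4.94 to 5.29 in wild type), cyclophilin (1.06 to 1.199 in osmads1, 1.21 to 1.57 in wild type) and ubiquitin (0.17 to 0.31 in osmads1, 0.48 to 0.53 in wild type). The genotypes overlapped in a second GAPDH and a second actin pair, and in all 6 pairs at 5-7 mm. Both actin pairs, cyclophilin and ubiquitin were lower at 5-7 mm than at 2 mm in both genotypes, without overlap. At 5-7 mm the first actin pair read 2.90 to 3.59 in osmads1 and 2.94 to 3.02 in wild type. Both GAPDH pairs were lower at 5-7 mm in wild type without overlap, while their osmads1 ranges overlapped. The part of these readings in the SPL differences, and in the shifts between lengths, was not tested. In the current annotation a long non-coding RNA gene, LOC136351438, overlaps OsSPL14, and whether the OsSPL14 probe set also reads it was not tested.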

How the data were processed

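Trizol was used to extract total RNA from 12 panicle samples, and 3' IVT Express reagents of Affymetrix to label it, according to the labels. The authors deposited log2 probe set levels. The submitters' processing notes name Partek and RMA, and their settings are not given in the sources used here. There is no detection call in RMA. Of 57381 probe sets, 187 controls (64 of them reporters) were left out. The platform annotation and the reference gene table (ASM3414082v1) gave 1 gene for 22436 probe sets. A gene is represented by its brightest probe set. Replicate arrays correlated at 0.9954 to 0.9977 across probe sets, and none were identical.

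All 12 arrays were fitted with limma (3.58.1, run in R 4.3.3), with a mean for each group and eBayes (8 residual degrees of freedom, prior 4.74). A call is a Benjamini-Hochberg adjusted p under 0.05 over all probe sets. The fit was tested on simulated data. Figures used matplotlib 3.10.9. Members, lists and tests were chosen with earlier results of these data known. Any gene of the SPL and pathway lists could be named, as could the 3 nearest genes of each member and genes of the marker lists. Genes whose SPL synonym stands for a spotted leaf or heat stress factor gene (HSFA4D, OsAT1 and a second SPL11), and namesakes of FC1, RCN1, PAP2 and OsIDS1, were left out. SPL5, SPL10, SPL11, SPL13, LAX2 and, among the green tissue genes, CAB1R had no assigned probe set. SPL3, SPL17, SPL18 and SPL19 are not among the listed SPL genes and were not read. D53, OsTB1, DEP1, GW7, WRKY45, IPI1, OTUB1, SNB, MOC1, TAW1, APO1 and ILI1 were not matched by name. Same-numbered arrays of the genotypes did not deviate together (correlations of -0.068 to 0.084 in 6 pairs). Those of the 2 lengths within a genotype correlated at -0.033, 0.130 and 0.119 in osmads1 (replicates 1, 2 and 3). In wild type they correlated at 0.156, 0.0076 and 0.172. Most of these values were above 0.1 but not all, so no pairing was assumed in the main fit.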

Additional observations from a re-analysis of the deposited data

Results flagged for a closer look

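Several genotype differences changed between the lengths (difference at 5-7 mm minus difference at 2 mm, in log2 units). For OsSPL14 this change was -0.97 ± 0.13, with every osmads1 array above wild type at 2 mm and below it at 5-7 mm, and the change was not tested since the gene was picked on these comparisons. In the limma interaction test, SPL1 (-0.60), SPL2 (-0.87), SPL9 (-0.38) and SPL15 (-0.47) changed downward and SPL6 (0.36) upward. Among genes of the pathway list, D14 (-1.17), D3 (-1.17), TOE1 (-1.04), OsLG2 (-1.48), OsBC1 (-0.60) and SLR1 (-0.45) changed downward and LAX1 (2.85) upward. The SLR1 call (adjusted p = 0.0373) was lost without any single 2 mm array, osmads1 replicate 1 of 5-7 mm or wild-type replicate 3 of 5-7 mm (adjusted p up to 0.0882). Of all genes 19.2% changed downward and 17.2% upward by this test.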

How the results depend on the processing

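The spread between replicates is here the SD within groups, pooled over the groups compared. The differences of OsSPL14, SPL16 and OsLG1, and their change between lengths, moved by less than this pooled SD under the alternatives run. The exception was the OsLG1 change (0.94 in place of 1.08 without the osmads1 arrays numbered 2 of both lengths, an alternative chosen after seeing the data). The pooled SD can be far above that of a single group. For SPL16 at 5-7 mm it was 0.17, while wild type alone had 0.029. The alternatives that kept all arrays also kept each sign. With 1 array left out, the 2 mm difference lay between 0.59 and 0.64 for OsSPL14, -0.25 and 0.12 for SPL16 and 0.17 and 0.30 for OsLG1. At 5-7 mm it lay between -0.42 and -0.25, -0.79 and -0.57, and 1.25 and 1.43 for these genes. Each has 1 probe set, so averaging probe sets could not be tried. Of all probe sets, 6737, 12285 and 12750 passed at 2 mm, at 5-7 mm and for the change between lengths, and 3834, 7627 and 8194 at an adjusted p under 0.01. Array weights gave 10552 at 2 mm. The other SPL genes passing for the change numbered 3 in place of 5 at 0.01. The pathway genes passing at 2 mm numbered 5 in place of 3 with array weights or the 6 arrays of the length alone, 1 at 0.01, and 1 to 5 with an array left out. They were 1 (D14) without osmads1 replicate 3 or wild-type replicate 2 and 5 without osmads1 replicate 2 of 5-7 mm, whose removal brought in LAX1 (adjusted p = 0.0288) and OsLG2 (0.0243). Beside those named with their genes, calls gained without 1 array were SPL12 at 2 mm (0.034) and for the change (0.0413) without osmads1 replicate 1 of 2 mm, OsMADS34 for the change (0.0379, without osmads1 replicate 2 of 2 mm), SPL7 for the change (0.0431, without osmads1 replicate 2 of 5-7 mm), and BU1 (0.0187, without osmads1 replicate 1) and SLR1 (0.0417, without wild-type replicate 1) at 5-7 mm. Without both osmads1 arrays numbered 2, the SPL6 and SLR1 changes and TOE1 at 2 mm did not pass, LAX1 and OsLG2 at 2 mm, SPL7 and D14 at 5-7 mm and the OsMADS34 change did, and SPL16 had 0.12 at 2 mm. With the replicate number as a replicate block, 5643 probe sets passed at 2 mm, 10894 at 5-7 mm and 11345 for the change. With the number as a replicate block across the lengths within each genotype, also chosen after seeing the data, 12382 passed for the change, and SLR1 did not. The cause of these shifts was not tested. RMA values carry no detection call. The number of arrays limits the precision.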

Other observations

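The genes next to the 3 SPL genes in the ASM3414082v1 gene table were looked up after their values could be seen. SPL16 lies next to the floral MADS-box gene OsMADS7, which stood at 6.75 ± 0.044 in osmads1 against 8.73 ± 0.38 in wild type at 2 mm and 9.38 ± 0.43 in osmads1 against 11.28 ± 0.19 in wild type at 5-7 mm (SD, n = 3). The OsMADS7 differences were -1.98 ± 0.20 and -1.91 ± 0.20, while those of SPL16 were -0.083 and -0.72. LOC4337259, next to OsLG1, had a difference of -0.36 ± 0.12 at 2 mm (limma adjusted p = 0.0647) and rose by 0.86 ± 0.12 at 5-7 mm (limma adjusted p = 0.000138). LOC4345997, next to OsSPL14, passed at neither length (-0.13 and -0.043), and neither did LOC4346132 on the other side of SPL16 (0.26 and -0.076) or a7 on the other side of OsLG1 (0.12 and -0.20, limma adjusted p under 0.05 required).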
